A study of Mus musculus with 12 samples.

Results

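Matrix metalloproteinases and their tissue inhibitors were examined in mouse embryonic fibroblasts (MEFs) with and without the transcription factors TFEB and TFE3, before and after DNA damage. The members were chosen by symbol, as the rows of the count table named Mmp2, Mmp3, Mmp9, Mmp10, Mmp11, Mmp13, Mmp14, Timp1, Timp2 and Timp3. They were 10 of the 24421 genes listed, 7 of them proteinases and 3 of them inhibitors, and 10 of 10 were among the 15220 genes that passed the filter on low counts. RNA was sequenced from 12 samples in 4 groups of 3: Null control, Null etoposide, DKO control and DKO etoposide. Null MEFs carry both transcription factors, and the study's text calls them WT. DKO MEFs are a TFEB/TFE3 double knockout made by CRISPR. Etoposide, a topoisomerase II poison that leaves DNA breaks, was given at 100 μM for 8 h, and the labels call the controls untreated while the study's methods give them DMSO. All 4 groups share the same SV40-immortalized background, which can alter p53, and the same growth medium. Each genotype is represented by 1 cell line, so the knockout and other differences between the lines cannot be told apart. RNA was isolated with either of a pair of kits, and which sample had which kit is not given in the sources used here. The deposited counts on genes ran from 45577023 to 104120871 per library, with a median of 71634159. Reads outside genes made up 25.1% to 27.3% of each Null etoposide library and at most 24.2% of any other library. Rn45s, the ribosomal RNA precursor, took 1.66% to 1.95% of the counts on genes in DKO control, 2.20% to 2.89% in Null control, 2.98% to 3.58% in DKO etoposide and 3.81% to 4.37% in Null etoposide. The part of these measures in the results was not tested.

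Metalloproteinases are zinc-dependent enzymes that cut collagens, laminins, proteoglycans and other matrix proteins, and most are secreted as inactive precursors. Collagenases open fibrillar collagen, gelatinases degrade the unwound chains, stromelysins have broader substrates, and membrane-type enzymes act at the cell surface, where they also activate other precursors. Tissue inhibitors of metalloproteinases (Timp proteins) bind the active enzymes and block them, and fibroblasts are a main source of enzymes and inhibitors alike.

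The targeted genes were examined first. Levels are given as CPM, the counts of a gene scaled to a common library total, with library sizes adjusted by the trimmed mean of M values (TMM). Tfeb stood at 38.9, 39.2 and 42.1 CPM in Null control and at 4.60, 6.09 and 4.68 CPM in DKO control. After etoposide it stood at 11.4, 10.2 and 10.4 CPM in Null and at 1.92, 1.61 and 2.20 CPM in DKO. Every DKO library was therefore below every Null library for Tfeb, and the log2 fold change of DKO against Null was -2.95 without etoposide and -2.46 after it. Tfe3 was at 115, 110 and 114 CPM in Null control against 94.1, 93.1 and 91.0 CPM in DKO control, and at 68.5, 69.6 and 68.1 CPM against 70.7, 71.2 and 63.4 CPM after etoposide. Tfe3 transcript was therefore still counted in the DKO line, and its level after etoposide overlapped that of Null. A CRISPR lesion need not remove the transcript, so the Tfe3 row does not check the labels.

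The cells were also compared with markers of their labelled type. Of 12 fibroblast markers, 9 had a mean of at least 1 CPM in each group, but not the same 9, since Thy1 passed this level in the Null groups and Dcn in the DKO groups. Their summed level was 5287 to 5459 CPM in Null control, 8798 to 9125 CPM in DKO control, 2909 to 2930 CPM in Null etoposide and 3356 to 3547 CPM in DKO etoposide. Vim was the most abundant in 3 groups and Col1a1 in DKO etoposide, whereas Fap had at most 2 counts in any DKO control library. Thy1 was at 4.50, 4.10 and 4.03 CPM in Null control and at 0.0602, 0.0326 and 0.0168 CPM in DKO control. The summed fibroblast markers thus moved with both genotype and treatment, and their part in the results for the metalloproteinases was not tested. In bulk samples such as these, fewer cells of a type and less RNA per cell cannot be told apart.

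Markers of other cell types were read in the same way. Of 8 macrophage markers, 2 reached a mean of 1 CPM, and their sum, most of it Cd14, was 16.5 to 19.8 CPM in Null control, 7.55 to 9.31 CPM in DKO control, 78.5 to 79.0 CPM in Null etoposide and 12.3 to 15.1 CPM in DKO etoposide. Ptprc, Adgre1 and Itgam had at most 3 counts per library in both control groups. The 6 neutrophil markers with a row in the table, led by Elane, S100a8 or Ngp, summed to 0 to 0.0492 CPM in Null control, 0 to 0.0602 CPM in DKO control, 0.254 to 0.656 CPM in Null etoposide and 0.205 to 0.447 CPM in DKO etoposide. The 6 endothelial markers, led by Pecam1 or Tek, summed to 0.0615 to 0.221 CPM in Null control, 0.0544 to 0.211 CPM in DKO control, 2.35 to 3.16 CPM in Null etoposide and 0.933 to 1.70 CPM in DKO etoposide, and Cdh5 and Tie1 had at most 3 counts per library in the control groups. The 6 epithelial markers, led by Krt8 or Cdh1, summed to 2.26 to 2.87 CPM in Null control, 5.05 to 5.94 CPM in DKO control, 3.32 to 4.10 CPM in Null etoposide and 2.02 to 2.57 CPM in DKO etoposide. The 7 chondrocyte and osteoblast markers summed to 47.9 to 50.2 CPM in Null control, with Sox9 the most abundant, and to 67.9 to 73.3 CPM in Null etoposide, with Col2a1 the most abundant. The same list summed to 26.6 to 28.9 CPM in DKO control and to 9.83 to 12.9 CPM in DKO etoposide. The macrophage, neutrophil and endothelial sums were thus higher after etoposide in both lines without overlap, and their part in the results for the metalloproteinases was not tested.

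Most of the genes tested were called in each comparison, so each count below is read against the share of all 15220 genes called, at an adjusted p under 0.05 in edgeR's quasi-likelihood test. Etoposide in Null MEFs raised 3 of 10 members (41.7% of all genes were called higher) and lowered 5 (36.8% lower). Etoposide in DKO MEFs raised 2 members (44.0% of all genes were called higher) and lowered 8 (31.3% lower). DKO MEFs had 7 members higher than Null MEFs without etoposide (33.4% of all genes were called higher) and 3 lower (34.1% lower). After etoposide 5 members were higher in DKO MEFs (36.9% of all genes were called higher) and 4 lower (35.2% lower). The etoposide response differed between the lines, by the interaction of genotype and treatment, for 8 members, with 3 called higher in DKO (29.9% of all genes were called higher) and 5 called lower (24.7% lower).

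The median log2 fold change of the members was -0.26 for etoposide in Null MEFs, beside 0.07 over all genes tested, and -0.69 in DKO MEFs, beside 0.14. For DKO against Null it was 0.67 without etoposide, beside -0.02, and 0.22 after etoposide, beside -0.0039. For the interaction it was -0.25, beside 0.05. These comparisons share libraries in pairs, so they are not independent of each other. The labels number the replicates but do not say that they were grown or treated separately, so the p-values measure the spread between these samples, which may be technical. With library size alone in place of TMM the median of all genes moved by 0.17 for etoposide in Null MEFs, by 0.27 in DKO MEFs, by -0.12 for DKO against Null without etoposide and by 0.10 for the interaction. The share of higher among all calls then moved from 53.1% to 63.8%, from 58.5% to 75.9%, from 49.5% to 38.2% and from 54.8% to 65.0%, in that order.

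**Figure D1:**
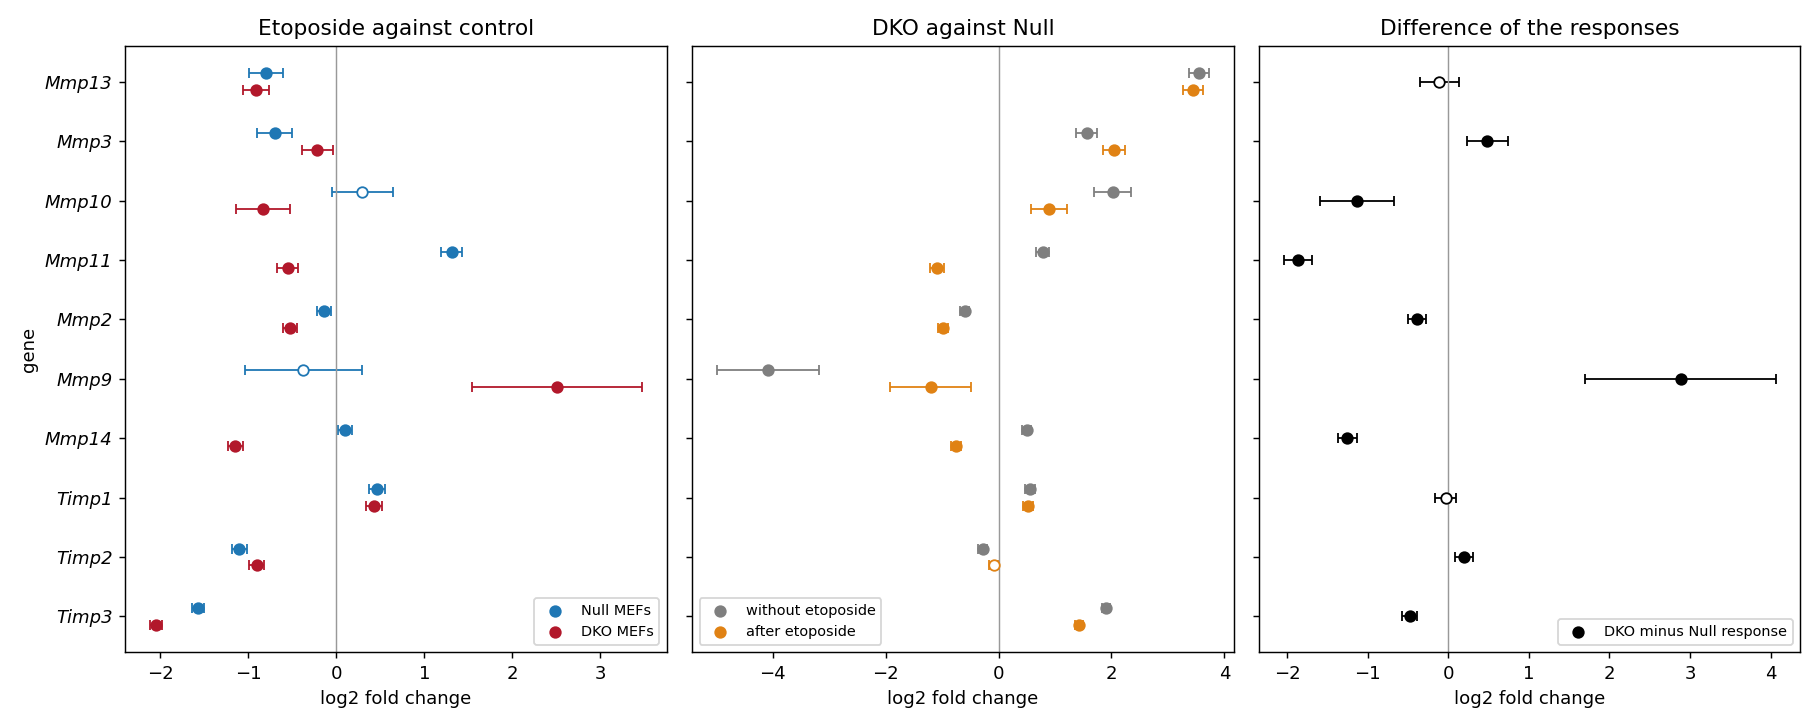
Log2 fold changes (x axis) of the 10 members (y axis), for etoposide against control in each line, DKO against Null in each condition, and the difference of the etoposide responses. Points are edgeR estimates, bars are 95% confidence intervals, and open points did not pass the adjusted p threshold of 0.05. Mmp13 sat at 3.55 and 3.44 for DKO against Null, and Mmp11 and Mmp14 crossed 0 between the control and the etoposide condition.

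Mmp13, the main interstitial collagenase of rodents, differed most by genotype among the members with at least 1 CPM in every group. It was at 9.82, 8.34 and 10.0 CPM in Null control and at 103, 106 and 123 CPM in DKO control. After etoposide it was at 5.30, 5.02 and 5.91 CPM in Null and at 60.7, 54.7 and 60.8 CPM in DKO. The 4 groups did not overlap, and the lowest DKO library was above the highest Null library in both conditions. Mmp13 was 11.7-fold higher in DKO than in Null without etoposide (log2 fold change 3.55, SE 0.08, edgeR adjusted p = 7.27e-16) and 10.9-fold higher after it (3.44, SE 0.09, edgeR adjusted p = 2.69e-15). Among the 15220 genes its log2 fold change ranked 177 from the top without etoposide and 18 after it. Etoposide lowered Mmp13 1.74-fold in Null (log2 fold change -0.80, SE 0.09) and 1.88-fold in DKO (-0.91, SE 0.07). The difference of these responses was -0.11, with a 95% interval of -0.36 to 0.14, and did not pass the test (edgeR adjusted p = 0.460). With 1 library left out it ranged from -0.18 to -0.022.

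**Figure D2:**
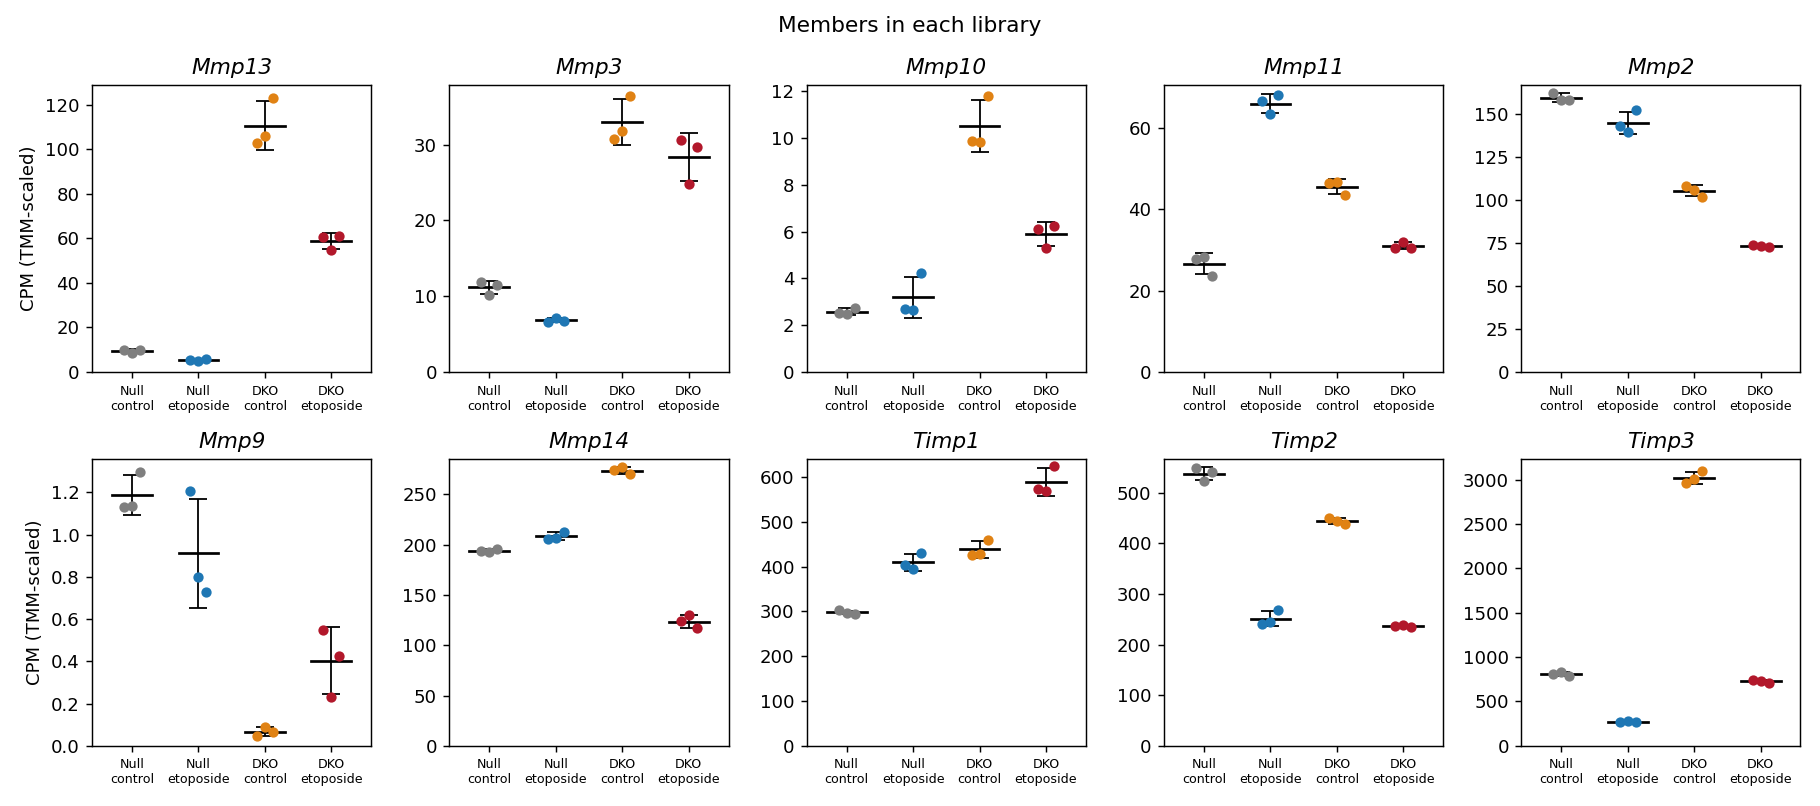
TMM-scaled CPM (y axes, each starting at 0) of the 10 members in the 12 libraries, by group (x axes). Coloured points are libraries, horizontal lines are group means and bars are 1 SD either side (n = 3). The DKO control libraries of Mmp13 sit at 103 to 123 CPM against 8.34 to 10.0 CPM in Null control.

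Mmp13 lies in a cluster of metalloproteinase genes on chromosome 9, together with Mmp3 and Mmp10, and these 3 members were all higher in DKO than in Null in both conditions. Their upstream sequences are therefore shown, as the 250 bases before each start in RefSeq's GRCm38.p6 promoter windows, read 5′ to 3′ on the plus strand. The windows lie at chr9:7272264-7272513 for Mmp13, chr9:7445572-7445821 for Mmp3 and chr9:7502092-7502341 for Mmp10, outside the transcripts. Capitals mark the letters TGACTCA or, on the other strand, TGAGTCA, which is the AP-1 motif bound by Fos and Jun dimers.
Mmp13: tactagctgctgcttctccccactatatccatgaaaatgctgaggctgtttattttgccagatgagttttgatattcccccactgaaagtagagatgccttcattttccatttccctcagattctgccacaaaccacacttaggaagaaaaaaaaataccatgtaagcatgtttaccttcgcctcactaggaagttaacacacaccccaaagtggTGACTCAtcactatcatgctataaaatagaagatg
Mmp3: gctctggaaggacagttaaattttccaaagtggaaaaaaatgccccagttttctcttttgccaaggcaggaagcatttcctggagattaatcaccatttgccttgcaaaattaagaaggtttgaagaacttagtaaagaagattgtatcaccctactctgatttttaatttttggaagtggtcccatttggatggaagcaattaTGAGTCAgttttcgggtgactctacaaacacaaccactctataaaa
Mmp10: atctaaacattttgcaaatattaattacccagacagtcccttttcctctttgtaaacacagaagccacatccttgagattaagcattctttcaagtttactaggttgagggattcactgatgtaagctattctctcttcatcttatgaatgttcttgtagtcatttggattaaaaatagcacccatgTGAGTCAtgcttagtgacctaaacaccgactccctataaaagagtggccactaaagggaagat
The match began 35 bases before the start in Mmp13, 46 before it in Mmp3 and 63 before it in Mmp10. Of the 8 members with a promoter window, these 3 held the motif in the 250 upstream bases, as did 4.46% of the 32851 windows of that length. Timp1 and Timp3 were also higher in DKO than in Null in both conditions, and their windows did not hold this motif. Mmp2 and Mmp9 had no window. The windows of the cluster genes that are not members were not read individually. The E-box letters CACGTG, which read the same on both strands and are the core of the motif bound by TFEB and TFE3, were in 0 of the 8 member windows and in 6.02% of all windows. A match describes the letters of a window and not a bound site.

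Mmp3, stromelysin 1, which cuts proteoglycans and laminin and activates procollagenases, was at 11.8, 10.1 and 11.5 CPM in Null control and at 30.7, 31.8 and 36.4 CPM in DKO control. After etoposide it was at 6.63, 7.17 and 6.78 CPM in Null and at 30.6, 24.8 and 29.7 CPM in DKO. The DKO libraries were above the Null libraries in both conditions, whereas the DKO etoposide libraries lay below each DKO control library by a narrow margin. The fold over Null was 2.95 without etoposide (log2 fold change 1.56, SE 0.09, edgeR adjusted p = 6.12e-11) and 4.13 after it (2.05, SE 0.09, edgeR adjusted p = 2.72e-12). With etoposide the log2 fold change of Mmp3 was -0.70 (SE 0.09) in Null and -0.22 in DKO (SE 0.08, edgeR adjusted p = 0.0240), which with library size alone turned to 0.06. The DKO call was lost without DKO control replicate 3 (-0.14, adjusted p = 0.137) or DKO etoposide replicate 2 (-0.14, adjusted p = 0.114), and with a filter at a mean of 1 CPM (-0.18, adjusted p = 0.0609). The responses differed by 0.49 (SE 0.12, edgeR adjusted p = 0.00289).

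Mmp10, stromelysin 2, was the least abundant of the 3 clustered members, at 2.53, 2.49 and 2.73 CPM in Null control and at 9.87, 9.85 and 11.8 CPM in DKO control. After etoposide it was at 2.70, 2.66 and 4.21 CPM in Null and at 6.13, 5.31 and 6.25 CPM in DKO. The Null groups overlapped, and replicate 3 stood above the other 2 Null etoposide libraries. DKO was 4.06-fold higher than Null without etoposide (log2 fold change 2.02, SE 0.15) and 1.86-fold higher after it (0.89, SE 0.15). Etoposide lowered Mmp10 1.78-fold in DKO (log2 fold change -0.83, SE 0.14, edgeR adjusted p = 7.17e-05). In Null its log2 fold change was 0.30 (SE 0.16, edgeR adjusted p = 0.104), and without Null etoposide replicate 3 it was 0.044. It passed without Null etoposide replicate 1 (0.40, adjusted p = 0.0466) or replicate 2 (0.41, adjusted p = 0.0399), and with DESeq2 (0.34, adjusted p = 0.0433), library size alone (0.46, adjusted p = 0.0158) or a filter at a mean of 1 CPM (0.38, adjusted p = 0.0454). The interaction was -1.13 (SE 0.22, edgeR adjusted p = 3.02e-04).

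Mmp11, stromelysin 3, which is activated inside the cell by furin, moved in opposite directions in the 2 lines. It was at 27.8, 28.3 and 23.6 CPM in Null control and at 66.5, 63.3 and 68.0 CPM in Null etoposide. In DKO it was at 46.5, 46.7 and 43.5 CPM without etoposide and at 30.6, 32.0 and 30.6 CPM after it. No pair of groups overlapped, and the order of the lines turned around between the conditions. Etoposide raised Mmp11 2.48-fold in Null (log2 fold change 1.31, SE 0.06, edgeR adjusted p = 1.65e-12) and lowered it 1.47-fold in DKO (-0.55, SE 0.06, edgeR adjusted p = 1.96e-07). The interaction of -1.86 (SE 0.08, edgeR adjusted p = 1.19e-11) was among the lowest 6.34% of all genes. DKO against Null was 0.78 (SE 0.06) on the log2 scale without etoposide and -1.09 (SE 0.06) after it. The exons of Mmp11 overlap those of Chchd10 on the opposite strand over 5.58% of their length, and Chchd10 had at most 65 counts in any library, where Mmp11 had at least 1511.

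Mmp2, gelatinase A, which degrades unwound collagen and type IV collagen, was at 162, 158 and 158 CPM in Null control and at 143, 140 and 152 CPM in Null etoposide. In DKO it was at 108, 106 and 102 CPM without etoposide and at 73.7, 73.4 and 72.5 CPM after it. The DKO libraries were below the Null libraries in both conditions, with a log2 fold change of -0.60 (SE 0.04, edgeR adjusted p = 3.98e-10) without etoposide and -0.98 (SE 0.04, edgeR adjusted p = 6.26e-13) after it. Etoposide lowered Mmp2 1.44-fold in DKO (log2 fold change -0.53, SE 0.04). In Null the fall was small (-0.14, SE 0.04, edgeR adjusted p = 0.00283), and with library size alone the value was 0.03. The call was also lost with a filter at a mean of 1 CPM (-0.05, adjusted p = 0.173). The responses differed by -0.39 (SE 0.05, edgeR adjusted p = 1.10e-05).

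Mmp9, gelatinase B, was the least abundant member and the one with the largest fold change of DKO against Null without etoposide. The raw counts were 92, 74 and 84 in Null control and 3, 8 and 4 in DKO control. They were 99, 66 and 50 in Null etoposide and 27, 17 and 43 in DKO etoposide. Every DKO library was below every Null library of the same condition, and the DKO etoposide libraries were above the DKO control libraries. Mmp9 was 17.0-fold lower in DKO than in Null without etoposide (log2 fold change -4.09, SE 0.42, edgeR adjusted p = 2.10e-07) and 2.31-fold lower after it (-1.21, SE 0.34, edgeR adjusted p = 0.00433). Etoposide raised it 5.68-fold in DKO (log2 fold change 2.51, SE 0.46, edgeR adjusted p = 1.13e-04), from a level that rests on 15 counts in all. In Null its log2 fold change was -0.38, with a 95% interval of -1.04 to 0.29 (edgeR adjusted p = 0.279), and it was -0.64 without Null etoposide replicate 1. The interaction was 2.88 (SE 0.56, edgeR adjusted p = 3.18e-04), and these counts limit its precision more than that of the other members. Etoposide in DKO also raised 5 of 6 macrophage and 4 of 4 endothelial markers tested (44.0% of all genes were called higher). Any link of these rises to that of Mmp9 was not tested.

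Mmp14, the membrane-type enzyme MT1-MMP, which cuts collagen at the cell surface and activates the Mmp2 precursor, was at 194, 193 and 196 CPM in Null control and at 206, 206 and 213 CPM in Null etoposide. In DKO it was at 274, 278 and 270 CPM without etoposide and at 124, 130 and 117 CPM after it. DKO libraries were thus the highest of the 12 without etoposide and the lowest after it. The log2 fold change of etoposide was -1.15 in DKO (SE 0.04, edgeR adjusted p = 6.67e-14), a 2.22-fold fall, and 0.10 in Null (SE 0.04, edgeR adjusted p = 0.0208). The value in Null stayed positive but no longer passed the test when Null control replicate 1 (0.10, adjusted p = 0.0652), replicate 2 (0.09, adjusted p = 0.0873) or replicate 3 (0.10, adjusted p = 0.0613) or Null etoposide replicate 3 (0.08, adjusted p = 0.106) was left out, or when no filter was used (0.07, adjusted p = 0.105). The responses differed by -1.25 (SE 0.05, edgeR adjusted p = 9.92e-12). DKO against Null was 0.50 (SE 0.04) without etoposide and -0.76 (SE 0.04) after it.

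Timp1, an inhibitor of most secreted metalloproteinases that also binds the Mmp9 precursor, rose with etoposide in both lines. It was at 302, 297 and 295 CPM in Null control and at 403, 395 and 431 CPM in Null etoposide. The DKO levels were 426, 428 and 460 CPM without etoposide and at 573, 568 and 624 CPM after it. DKO etoposide was above, and Null control below, each of the other groups, while Null etoposide and DKO control overlapped. The log2 fold change of etoposide was 0.46 in Null (SE 0.04, edgeR adjusted p = 4.57e-08) and 0.43 in DKO (SE 0.04, edgeR adjusted p = 1.53e-07). DKO against Null was 0.56 (SE 0.04) without etoposide and 0.52 (SE 0.04) after it. The interaction was -0.03, with a 95% interval of -0.16 to 0.10 (edgeR adjusted p = 0.682), and it was 0.07 with library size alone.

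Timp2, which inhibits metalloproteinases and takes part with Mmp14 in activating the Mmp2 precursor, fell with etoposide in both lines. It was at 549, 523 and 541 CPM in Null control and at 240, 244 and 268 CPM in Null etoposide. The DKO levels were 449, 443 and 438 CPM without etoposide and at 237, 238 and 234 CPM after it. The control groups were apart, and the etoposide groups lay close together without overlapping. Etoposide lowered Timp2 2.15-fold in Null (log2 fold change -1.10, SE 0.04, edgeR adjusted p = 7.87e-14) and 1.88-fold in DKO (-0.91, SE 0.04, edgeR adjusted p = 1.49e-12). DKO against Null was -0.28 (SE 0.04, edgeR adjusted p = 5.62e-06) without etoposide and -0.08 (SE 0.04, edgeR adjusted p = 0.0604) after it. The latter passed without Null etoposide replicate 1 (-0.12, adjusted p = 0.0153) or replicate 2 (-0.11, adjusted p = 0.0290), or DKO etoposide replicate 1 (-0.11, adjusted p = 0.0433) or replicate 2 (-0.10, adjusted p = 0.0467), whereas without Null etoposide replicate 3 it was -0.029. It also passed under 6 of the 8 other settings, from -0.08 with limma-trend (adjusted p = 0.0461) to -0.15 with the filter at a mean of 1 CPM (adjusted p = 0.00191). The interaction was 0.19 (SE 0.05, edgeR adjusted p = 0.00564), and with DESeq2's size factors in edgeR it was 0.13 (adjusted p = 0.0519).

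Timp3, the inhibitor that binds to the matrix and also blocks ADAM-type proteinases, had the largest fall with etoposide of the 10 members in each line. It was at 812, 831 and 788 CPM in Null control and at 265, 282 and 270 CPM in Null etoposide. The DKO levels were 2963, 3009 and 3096 CPM without etoposide and at 747, 728 and 712 CPM after it. No groups overlapped, and DKO etoposide lay just below Null control. Etoposide lowered Timp3 2.98-fold in Null (log2 fold change -1.57, SE 0.03, edgeR adjusted p = 1.02e-16) and 4.15-fold in DKO (-2.05, SE 0.03, edgeR adjusted p = 7.47e-18), and the responses differed by -0.48 (SE 0.04, edgeR adjusted p = 8.59e-08). DKO was 3.73-fold above Null without etoposide (log2 fold change 1.90, SE 0.03) and 2.68-fold above it after (1.42, SE 0.03). Exons of Syn3 on the opposite strand overlap 21.3% of the exon length of Timp3, and whether counting used strand is not stated. Syn3 had at most 59 counts in any library, against at least 18508 for Timp3.

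Levels were compared between the members per kilobase of the longest annotated transcript, so the orders leave out other metalloproteinases. In Null control the order of the proteinases was Mmp14 (60.0 CPM per kilobase, SD 0.42), Mmp2 (51.9, SD 0.81), Mmp11 (11.6, SD 1.13), Mmp3 (6.197, SD 0.50), Mmp13 (3.52, SD 0.34), Mmp10 (1.501, SD 0.076) and Mmp9 (0.374, SD 0.030). No neighbours in this order overlapped in their libraries. Divided by the summed length of all exons instead, Mmp14 was at 32.6 and Mmp2 at 47.3 CPM per kilobase, so the order of these 2 depends on the length used. In DKO control Mmp14 (84.5, SD 1.18) was followed by Mmp13 (41.3, SD 4.07), Mmp2 (34.3, SD 1.05), Mmp11 (19.9, SD 0.78) and Mmp3 (18.3, SD 1.67), and the libraries of the last pair overlapped. After etoposide the order in Null was Mmp14 (64.4), Mmp2 (47.1), Mmp11 (28.8), Mmp3 (3.81), Mmp13 (2.02), Mmp10 (1.85) and Mmp9 (0.287), with overlapping libraries for Mmp13 and Mmp10. Of genes that are not members, Mmp15 (32.3) had a higher mean there than Mmp11, and Mmp28 (7.90) a higher mean than Mmp3. In DKO the order of the members after etoposide was Mmp14 (38.2), Mmp2 (23.8), Mmp13 (21.97), Mmp3 (15.8), Mmp11 (13.6), Mmp10 (3.42) and Mmp9 (0.127), with overlapping libraries for Mmp3 and Mmp11. By exon length Mmp2 (43.0) stood above Mmp14 (35.0) in Null etoposide, and in DKO etoposide Mmp13 (21.97), Mmp2 (21.7) and Mmp14 (20.7) lay close together in the reverse order. Mmp13 made up 20.2% of the summed level of the member proteinases in DKO control and 2.60% in Null control.

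The summed level of the 7 proteinases was 135 CPM per kilobase in Null control (SD 1.74, n = 3), 148 in Null etoposide (SD 4.79), 205 in DKO control (SD 3.73) and 117 in DKO etoposide (SD 1.87). The libraries of the 4 groups did not overlap in this sum, whereas with library size alone Null control (128.8 to 132.7) and DKO etoposide (123.5 to 129.0) overlapped. The 3 inhibitors summed to 654 CPM per kilobase in Null control (SD 7.64), 589 in Null etoposide (SD 24.4), 1256 in DKO control (SD 34.4) and 885 in DKO etoposide (SD 32.1). For the Null line the direction with etoposide depended on the scaling, since library size alone gave 632 and 639 CPM per kilobase. Timp1 made up 51.6% of the inhibitor sum in Null control and 78.8% in Null etoposide, whereas Timp3 went from 26.2% to 9.79%. In DKO Timp1 went from 39.5% to 75.3% with etoposide, and Timp3 from 51.0% to 17.5%. With exon length in place of transcript length Timp3 was at 371 and Timp1 at 494 CPM per kilobase in DKO control, so their order turns with the length used. By exon length Timp3 was at 99.5 CPM per kilobase in Null control, 33.4 in Null etoposide and 89.5 in DKO etoposide. By transcript length it was at 172, 57.7 and 154 in the same groups, so its shares there also depend on the length used. The ratio of the inhibitor sum to the proteinase sum is a ratio of transcripts and not of proteins. It was 4.85 in Null control (SD 0.029), 3.97 in Null etoposide (SD 0.042), 6.14 in DKO control (SD 0.060) and 7.58 in DKO etoposide (SD 0.32). This ratio was computed by transcript length alone and also depends on the length used. The sums and the ratio cover the members alone. Mmp15, not a member, was at 0.250 CPM per kilobase in Null control, 32.3 in Null etoposide, 0.248 in DKO control and 4.69 in DKO etoposide. Mmp16, also not a member, went from 7.40 in Null control to 1.24 in Null etoposide.

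**Figure D3:**
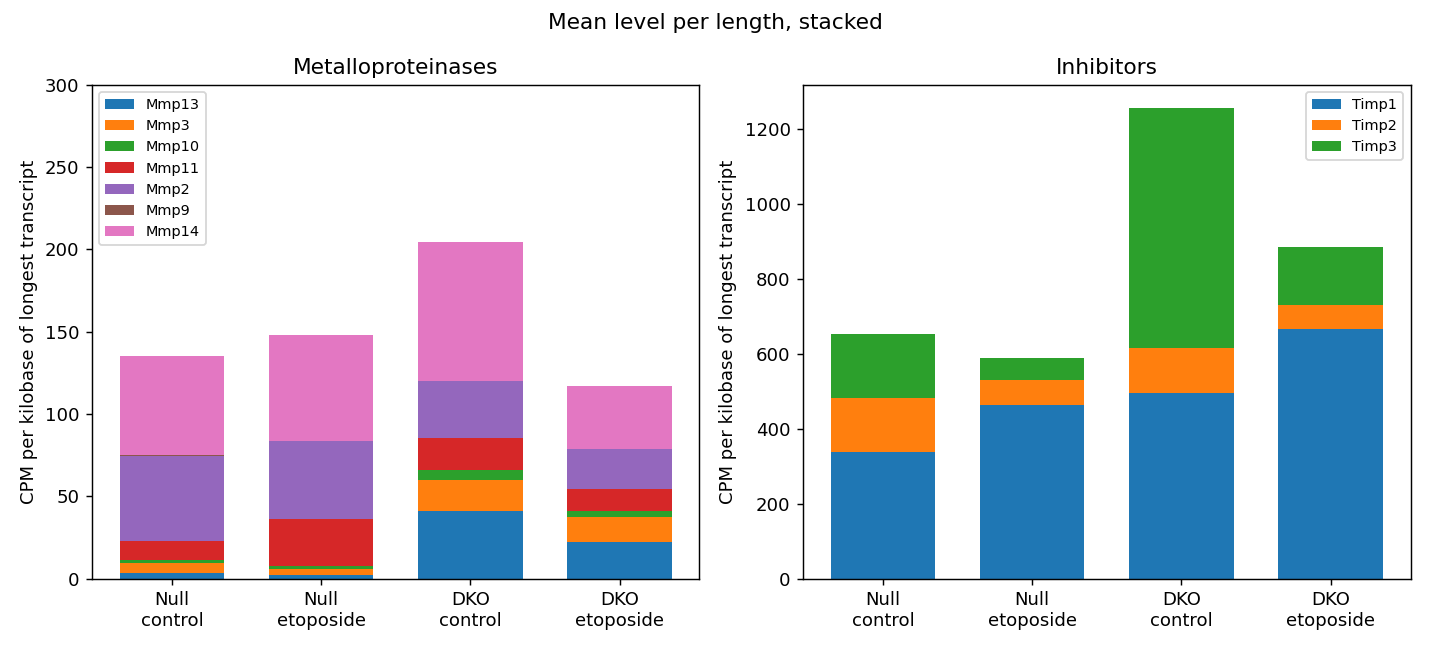
Stacked group means (n = 3) of TMM-scaled CPM per kilobase of the longest transcript, for the 7 metalloproteinases and the 3 inhibitors, by group (x axes). Each colour is a gene, and no error bars are drawn. The proteinase stack is tallest in DKO control, at 205, and Timp3 fills 51.0% of the inhibitor stack there.

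The chromosome 9 cluster holds 10 metalloproteinase genes in the order Mmp13, Mmp12, Mmp1b, Mmp3, Mmp1a, Mmp10, Mmp8, Mmp27, Mmp20 and Mmp7. Mmp13, Mmp3 and Mmp10 were the ones above 1 CPM in any library. Mmp12, which lies next to Mmp13, had at most 19 counts in any library, and Mmp1b at most 26. Mmp7 had 0 counts in 3 groups and at most 4 in DKO etoposide.

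**Figure D4:**
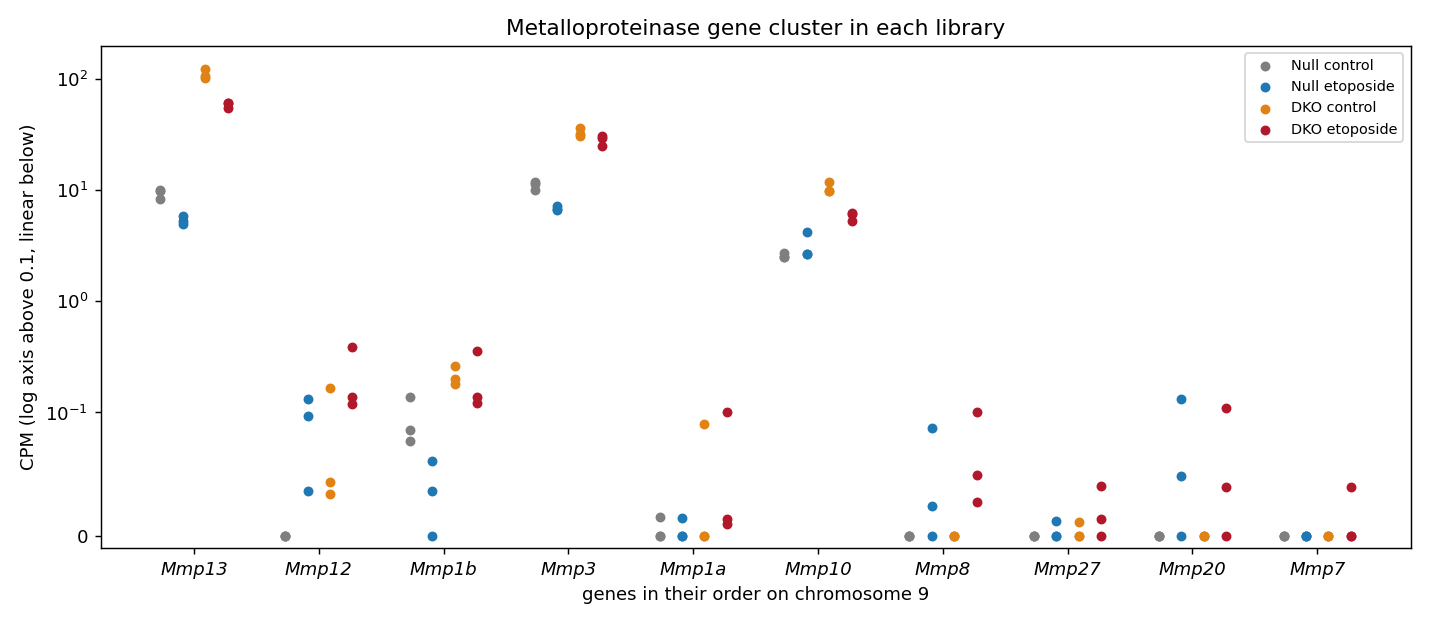
TMM-scaled CPM (y axis, logarithmic above 0.1 and linear below) of the 10 genes of the chromosome 9 cluster, in their order along the chromosome (x axis). Each point is 1 library, coloured by group. Mmp13, Mmp3 and Mmp10 stand above 1 CPM and in DKO control reach 123, 36.4 and 11.8 CPM.

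The table has 17 other Mmp and Timp genes, of which 10 were tested. Mmp1b, Mmp12, Mmp17, Mmp23 and Mmp25 averaged under 1 CPM in every group, so the counts and medians of this list rest partly on low counts. Etoposide in Null MEFs raised 5 of the 10 and lowered 3 (all genes 41.7% and 36.8%), with a median of 0.85 against 0.07 over all genes. Mmp12 was among those raised, with 0 counts in Null control and at most 9 in any Null etoposide library. In DKO MEFs it raised 5, with the other 5 not called (all genes 44.0% higher and 31.3% lower), with a median of 1.08 against 0.14. The largest change was that of Mmp15, a membrane-type enzyme, which was at 1.59, 1.35 and 0.911 CPM in Null control and at 170, 153 and 174 CPM in Null etoposide. In DKO it was at 1.35, 1.35 and 1.12 CPM without etoposide and at 25.8, 24.4 and 21.98 CPM after it, so the control groups overlapped and the etoposide groups were far apart. Its log2 fold change with etoposide was 6.99 in Null (SE 0.11) and 4.22 in DKO (SE 0.11), and the interaction was -2.77 (SE 0.19, edgeR adjusted p = 3.53e-09). For DKO against Null 2 of these 10 genes were higher and 5 lower without etoposide (all genes 33.4% and 34.1%), and the same numbers after it but not the same genes (all genes 36.9% and 35.2%), with medians of -0.31 against -0.02 and -0.86 against -0.0039. The interaction was called higher for 4 and lower for 2 of them (all genes 29.9% and 24.7%), with a median of 0.23 against 0.05. Mmp16, another membrane-type enzyme, was at 38.4, 37.0 and 35.9 CPM in Null control and at 0.0752, 0.174 and 0.268 CPM in DKO control (log2 fold change -7.76, SE 0.23). Mmp19 was higher in DKO, with log2 fold changes of 1.73 (SE 0.08) without etoposide and 2.05 (SE 0.08) after it, but 22.3% of its exon length overlaps Tmem198b on the opposite strand.

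Related proteinases and regulators were read from lists of the same kind, with the shares of all genes called higher and lower beside each pair of counts. Of 21 Adamts and Adam genes tested, 7 rose and 11 fell with etoposide in Null (median -0.15, all genes 41.7% and 36.8%, median 0.07), and 4 rose and 14 fell in DKO (median -0.62, all genes 44.0% and 31.3%, median 0.14). For DKO against Null 13 were higher and 6 lower without etoposide (median 0.73, all genes 33.4% and 34.1%, median -0.02), 6 were higher and 9 lower after it (median -0.08, all genes 36.9% and 35.2%, median -0.0039), and the interaction was higher for 2 and lower for 12 (median -0.57, all genes 29.9% and 24.7%, median 0.05). Adamts1 and Adamts5, which cleave aggrecan and versican, had log2 fold changes of -3.86 and -1.88 with etoposide in DKO. In Null they fell too, by log2 fold changes of -1.215 and -1.21. Adamts9 was higher in DKO than in Null by a log2 fold change of 5.54 (SE 0.19) without etoposide.

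Of 18 genes that activate or clear metalloproteinases, 8 rose and 9 fell in Null with etoposide (median 0.02, all genes 41.7% and 36.8%, median 0.07), and 4 rose and 11 fell in DKO (median -0.78, all genes 44.0% and 31.3%, median 0.14). For DKO against Null 11 were higher and 4 lower without etoposide (median 0.38, all genes 33.4% and 34.1%, median -0.02), 5 were higher and 8 lower after it (median -0.05, all genes 36.9% and 35.2%, median -0.0039), and the interaction was higher for 2 and lower for 9 (median -0.31, all genes 29.9% and 24.7%, median 0.05). Plau, the urokinase that generates plasmin, had log2 fold changes with etoposide of 2.10 in Null and -1.54 in DKO, with an interaction of -3.64 (SE 0.05, edgeR adjusted p = 5.51e-17). Reck, a membrane-anchored inhibitor of Mmp9 and Mmp14, was higher in DKO after etoposide by 1.39 (SE 0.09) on the log2 scale. Thbs1, a matrix protein that binds Mmp2 and Mmp9, was higher in DKO control by a log2 fold change of 3.02 (SE 0.04).

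Of 17 transcription factors known to act on metalloproteinase promoters, 5 rose and 9 fell with etoposide in Null (median -0.14, all genes 41.7% and 36.8%, median 0.07), and 4 rose and 11 fell in DKO (median -0.51, all genes 44.0% and 31.3%, median 0.14). For DKO against Null 7 were higher and 9 lower without etoposide (median -0.13, all genes 33.4% and 34.1%, median -0.02), 4 were higher and 12 lower after it (median -0.54, all genes 36.9% and 35.2%, median -0.0039), and the interaction was higher for 5 and lower for 9 (median -0.20, all genes 29.9% and 24.7%, median 0.05). Jun, a subunit of AP-1, was at 141, 142 and 130 CPM in Null control and at 220, 235 and 205 CPM in DKO control. After etoposide Jun was at 358, 361 and 359 CPM in Null and at 182, 169 and 163 CPM in DKO, an interaction of -1.75 (SE 0.07, edgeR adjusted p = 6.39e-12). Fosl2, another AP-1 subunit, was higher in DKO control by a log2 fold change of 1.38 (SE 0.05) and lower after etoposide by -0.54 (SE 0.05), with a log2 fold change of -3.05 for etoposide in DKO. Of the other AP-1 subunits, Fosb (0.51) and Junb (0.39) were higher and Jund (-0.82) and Fosl1 (-0.34) lower in DKO control, while Fos was at 0.16 (edgeR adjusted p = 0.215). After etoposide Fos (-1.20), Fosb (-1.65), Fosl1 (-1.09), Jun (-1.07), Junb (-0.75) and Jund (-0.38) were lower in DKO. Exons of Jund and Fosl1 overlap opposite-strand genes over 52.6% and 57.2% of their length, so their counts are uncertain.

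Of 17 matrix substrates, 2 rose and 13 fell with etoposide in Null (median -0.82, all genes 41.7% and 36.8%, median 0.07), and 1 rose and 13 fell in DKO (median -0.81, all genes 44.0% and 31.3%, median 0.14). For DKO against Null 11 were higher and 4 lower without etoposide (median 0.74, all genes 33.4% and 34.1%, median -0.02), 11 were higher and 5 lower after it (median 0.78, all genes 36.9% and 35.2%, median -0.0039), and the interaction was higher for 6 and lower for 2 (median 0.03, all genes 29.9% and 24.7%, median 0.05). Col3a1, a fibrillar collagen, was higher in DKO by a log2 fold change of 2.67 (SE 0.04) without etoposide and 2.70 (SE 0.04) after it. Nid1, a basement membrane linker, was lower in DKO, at -6.12 (SE 0.07) and -5.60 (SE 0.07).

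The genes most like each member over the 12 libraries are given as a description, by Pearson's r of log2 CPM, for genes averaging 10 CPM or more. The libraries fall into 4 tight groups, so these r mostly reflect the 4 group means. For Mmp13 they were Col6a3 (r = 0.998), Il1rl1 (0.996) and Nrbp1 (0.996), and for Mmp3 they were Samd9l (0.993), Tspyl2 (0.992) and Map2k1 (0.992). For Mmp10 they were Ripk4 (0.977), Fyco1 (0.974) and Wtip (0.973), and for Mmp11 they were Fas (0.983), Jun (0.983) and Irf1 (0.978). For Mmp2 they were Pxdc1 (0.994), Sik1 (0.990) and Plekho1 (0.988), for Mmp9 Med24 (0.987), Cpsf1 (0.983) and Gnpat (0.980), and for Mmp14 Tsc22d1 (0.987), Emp3 (0.986) and Cd24a (0.986). Timp1 was most like Nxt2 (0.991), Oas1b (0.990) and Tmem129 (0.988), Timp2 most like Hist2h4 (0.998), Atf4 (0.997) and Camk2d (0.995), and Timp3 most like Vgll3 (0.999), Diap2 (0.998) and Adgrl3 (0.998).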

How the data were processed

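RNA of 12 MEF samples was read with a stranded total RNA kit and paired-end sequencing. The values are raw counts of read pairs per gene as deposited by the authors, who aligned reads with HISAT2, kept unique pairs, and counted with HTSeq on GENCODE according to the methods, while the submitters' processing notes name featureCounts and build mm10; versions and the strand setting are not given in the sources used here. The 5 summary lines entered neither library sizes nor tests: reads in no gene made up 20.2% to 27.3% of all lines, reads with several alignments 15.9% to 20.5% and ambiguous reads 0.43% to 0.51%.

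In R 4.3.3, genes were filtered by edgeR 4.0.16's filterByExpr, scaled by TMM (factors 0.884 to 1.09) and fitted by glmQLFit in 1 model of the 4 groups, with p-values from glmQLFTest, Benjamini-Hochberg adjusted over all 15220 genes, threshold 0.05. SE is the log2 fold change over the square root of F. The fits were tested on simulated data. Alternatives were DESeq2 1.42.0, limma-trend (limma 3.58.1, robust), DESeq2 size factors, library size alone, no or a stricter filter (mean of 1 CPM), the 6 libraries alone, a replicate block, and each library left out. Replicates of each group differed beyond counting noise.

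Named were the members, Tfeb and Tfe3, and from each list examples among the up to 3 called genes with the highest and up to 3 with the lowest log2 fold change and a mean of at least 1 CPM, and the 3 genes of highest r with each member. Markers were named by level, and Thy1, Dcn, Junb, the AP-1 subunits as a group and the chromosome 9 neighbours after their values were seen. Exons of Adamts9, Jun, Junb, Thbs1, Col3a1, Nid1, Mmp1b, Mmp7, Mmp12, Krt8 and Itgam also overlap those of another gene, so these counts are uncertain too. The members and lists were chosen with earlier results of these data known. Gene models are from GENCODE M21 and promoter windows from RefSeq, both on GRCm38.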

Additional observations from a re-analysis of the deposited data

Results flagged for a closer look

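For 8 members the etoposide response differed between the lines by the interaction test across all genes, and each value is the log2 fold change in DKO minus that in Null. Of all genes tested, 29.9% were called higher and 24.7% lower by this test. The response was lower in DKO for Mmp11 (-1.86), Mmp14 (-1.25), Mmp10 (-1.13), Timp3 (-0.48) and Mmp2 (-0.39). It was higher in DKO for Mmp9 (2.88), Mmp3 (0.49) and Timp2 (0.19). Mmp11 changed in opposite directions in the 2 lines. Mmp14 fell in DKO, while its value in Null was 0.10, a call that was lost when any 1 of 4 libraries was left out. With 1 line per genotype, the knockout and other differences between the lines cannot be told apart. No library was tested as an outlier within its group of 3, though each was left out in turn.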

How the results depend on the processing

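Of 385 member values under the 8 other settings, 369 kept direction and side of the threshold, as did 346 of 360 with 1 library left out. Of the rest, 4 and 6 lost the call, 9 and 6 gained it, and 3 and 2 changed sign. With library size alone, Mmp2 in Null with etoposide was 0.028, Mmp3 in DKO with etoposide 0.057 and the Timp1 interaction 0.073. With 1 library left out the Timp1 interaction ranged from -0.087 to 0.0083 (without DKO control replicate 3), and it was 0.0066 without Null etoposide replicate 3. Calls were also lost for Mmp14 in Null with no filter (0.07), for Mmp2 in Null and Mmp3 in DKO with the stricter filter (-0.05 and -0.18), and for the Timp2 interaction with DESeq2's size factors (0.13). Calls were gained for Mmp10 in Null with DESeq2, library size alone and the stricter filter (0.34, 0.46 and 0.38). Timp2 in DKO against Null after etoposide gained a call under 6 of the 8 settings, at -0.14 with DESeq2 or its size factors, -0.08 with limma-trend, -0.10 with library size alone or no filter, and -0.15 with the stricter filter. The cause was not tested.

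Members called higher with etoposide in DKO went from 2 to 1 under the stricter filter, which removed Mmp9. For this comparison 5164 of the 12026 genes that passed this filter were called higher and 4351 lower. The Mmp9 calls for DKO against Null in each condition and for the interaction were removed too. With 1 library left out, 15433 to 15778 genes were tested. For etoposide in Null, 2 to 4 members were called higher and 5 lower (all genes 6134 to 6336 higher and 5476 to 5543 lower). For etoposide in DKO, 2 were higher and 7 to 8 lower (all genes 6159 to 6576 and 4624 to 4807). For DKO against Null without etoposide, 7 were higher and 3 lower (all genes 4794 to 4907 and 4904 to 5003). After etoposide, 5 were higher in DKO and 4 to 5 lower (all genes 5217 to 5444 and 5142 to 5332). For the interaction, 3 were higher and 5 lower (all genes 4114 to 4458 and 3586 to 3790). Deviations of same-numbered replicates had r of -0.032 to 0.043 over 18 pairs, so the numbers were not taken to pair samples, though 9 of 12 libraries were closest to their own number, a hint from the data and not from the design. With a replicate block, 3 members were higher and 5 lower for etoposide in Null (6300 of all 15220 genes higher and 5573 lower). No member's call changed under the block in any comparison. Exon length moved 20 of 40 levels per kilobase by over 1 SD, and library size alone moved 8 of 8 summed levels. Depth limits Mmp9 most.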
